A study of Drosophila melanogaster with 9 samples.

Results

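Testes of 2 control stocks of Drosophila melanogaster were compared with each other, and with testes in which the bromodomain gene tbrd-2 was knocked down. The comparison took in all 18952 probe sets of the Affymetrix Drosophila Genome 2.0 array, on 3 arrays of the bam-Gal4 control and 3 of the undriven hairpin control, out of 9 arrays in the series. Of these probe sets, 13646 carried 1 gene symbol, 402 several, 183 were control probe sets of the array itself and the other 4721 are not named here. For 13633 probe sets of 11940 genes the chromosome arm was known from RefSeq (assembly Release 6 plus ISO1 MT).

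The bam-Gal4 control males carried the driver on the X and on 1 homologue of chromosome 3, with an Sb-marked homologue opposite it (genotype label bam/y;+/+;bam/Sb). The undriven control males carried 1 copy of the hairpin transgene tbrd-2RNAi, also over Sb, and no driver, and their label (+/+;tbrd-2RNAi/Sb) does not give an X. The knockdown males (bam/y;+/+;bam/tbrd-2RNAi) carried driver and hairpin on the homologues of chromosome 3 and no Sb. All 3 labels give +/+ for chromosome 2 and none gives chromosome 4. The methods, however, give the driver mothers of the knockdown cross as Sp/CyO on chromosome 2, which the labels do not show. All flies were kept at 30 °C, were 0 to 2 days old when dissected, and each array held RNA of a separate pool, of 30 animals by the labels and of fewer by the methods. The methods describe the hairpin line as coming from a public RNAi collection and the driver as a separate line, so the controls differed in driver, hairpin and stock of origin together, and these cannot be told apart.

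In the Gal4 system a driver line expresses the yeast activator Gal4 from a chosen promoter, and Gal4 turns on a transgene behind its UAS binding sites. The promoter of bam (bag of marbles), a gene needed for spermatogonia to stop dividing and become spermatocytes, directs Gal4 to germ cells. A hairpin without a driver, and a driver without a hairpin, are the usual pair of controls for such a knockdown, and neither is meant to lower the target. Chromosomes from separate laboratory stocks carry different alleles at many loci, and a cross passes them on in whole chromosomes or in recombined pieces. Males do not recombine, a son takes his X from his mother and his Y from his father, and balancer chromosomes suppress recombination in females.

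The target gene was at similar levels in both controls. The log2 values of tbrd-2, on chromosome arm 2R, were 10.52, 10.52 and 10.73 on the bam-Gal4 arrays and 10.19, 10.39 and 10.36 on the undriven arrays. The difference of 0.28 (SE 0.09) had a limma p of 0.0167 before and 0.268 after adjustment, with undriven slightly lower. On the knockdown arrays they were 8.06, 7.82 and 8.05, below every control array. The endogenous bam transcript gave 6.81, 6.49 and 6.64 in bam-Gal4 testes, 6.71, 6.69 and 6.72 in undriven testes (difference -0.06, adjusted p = 0.875), and Sb gave 4.33, 4.21 and 4.23 against 4.22, 4.33 and 4.22. Genes of the last stages of sperm formation were at similar levels: the mean log2 value of 20 post-meiotic and sperm genes, such as Mst77F and Mst84Db (proteins of condensed sperm chromatin and of the sperm tail), was 12.64 to 12.74 in bam-Gal4 and 12.70 to 12.76 in undriven testes.

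Between the controls, 72 probe sets passed both limits used for a call, an adjusted p under 0.05 in limma and a difference of 1 or more on the log2 scale in either direction. In bam-Gal4 testes 39 were lower (0.206% of those tested) and 33 higher (0.174%), together 0.38%. In all 72 the arrays of the controls did not overlap, which was so for 15.2% of all probe sets. The differences ran from 2.00-fold to 10.9-fold, and 14 exceeded 4-fold. In 41 of the 72 the control with the lower mean lay below a log2 value of 6, where the medians of the 9 arrays were 5.86 to 5.96. Without the fold limit 394 probe sets (2.08%) had an adjusted p under 0.05, 230 lower and 164 higher. For comparison, in the same fit the knockdown passed both limits against bam-Gal4 for 1.29% of probe sets and against undriven for 1.26%. The p-values measure the spread between these arrays. In whole testes, fewer cells of a type and less RNA per cell cannot be told apart.

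Of the 72 probe sets, 52 stood for 1 named gene each, and all 52 genes are protein-coding (32 lower and 20 higher in bam-Gal4 testes). The most different of them was CG31205, which belongs to the trypsin-like serine protease family. Its log2 values were 6.86, 6.81 and 6.75 in bam-Gal4 testes and 3.66, 3.77 and 3.75 in undriven testes, where it lay near the lower end of the array's range. The difference of 3.08 (SE 0.08, adjusted p = 3.1e-07) is 8.46-fold. The knockdown arrays gave 6.41, 6.51 and 6.23, a little under bam-Gal4 (difference -0.42, adjusted p = 0.00574) and far above undriven.

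CG13876 was 6.25-fold higher in bam-Gal4 testes. It gave 7.49, 7.49 and 7.53 there, 5.28, 4.58 and 4.72 in undriven testes, and 7.24, 7.49 and 7.48 in the knockdown (bam-Gal4 minus undriven 2.64, SE 0.16, adjusted p = 5.48e-05). The knockdown values overlapped those of bam-Gal4. CG13053, with 8.36, 8.03 and 8.01 against 5.84, 6.36 and 6.09, was 4.10-fold higher, and its knockdown arrays (7.74, 7.73 and 7.74) again lay next to bam-Gal4. The other named genes higher by a log2-fold change of 1.3 or more were CG11842 and CG1299 (both serine protease family members, 1.84 and 1.74), CG15554 (1.65), the Rab-type GTPase gene RabX2 (1.58), CG42846 (1.53), CG13737 (1.42), CG11458 (1.33), CG17816 (1.32) and the innexin gene ogre (1.30).

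The largest fall among named genes was that of CG13445, 6.20-fold. Its values were 5.05, 5.13 and 5.15 in bam-Gal4 testes, 7.63, 7.89 and 7.71 in undriven testes and 7.82, 7.81 and 7.70 in the knockdown (difference -2.63, SE 0.08, adjusted p = 5.49e-07). Here the knockdown arrays overlapped the undriven arrays and stood clear of bam-Gal4, the reverse of CG13876. The serine protease family gene CG17477 had the same pattern: 4.31, 4.89 and 4.77 against 7.21, 7.05 and 6.82, with 6.81, 6.90 and 6.81 in the knockdown, a 5.17-fold difference between the controls. Eig71Eg, one of a cluster of ecdysone-induced genes, was lower by 1.95 on the log2 scale, with knockdown values of 6.83, 6.46 and 6.42 against 6.60, 6.67 and 6.45 in undriven testes.

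pbl (pebble), the RhoGEF that starts the contractile ring in cytokinesis, was 4.59-fold lower in bam-Gal4 testes. The bam-Gal4 arrays gave 7.20, 6.95 and 7.09 and the undriven arrays 9.16, 9.39 and 9.29 (difference -2.20, SE 0.11, adjusted p = 2.5e-05). The knockdown arrays, at 9.66, 10.03 and 9.84, lay above both controls, by 2.76 over bam-Gal4 and by 0.56 over undriven (adjusted p = 0.00631). The remaining named genes lower by 1.3 or more were CG44838 (-2.26), CG11626 (-2.03), the zona pellucida domain gene neo (-2.0), CG14545 (-1.77), CG8519 (-1.74), CG10000 (-1.69), the serine protease family gene CG31266 (-1.44), Tmhs, which codes for a tetraspan membrane protein (-1.40), the G protein-coupled receptor gene mthl8 (-1.35), the odorant receptor gene Or94a (-1.32), CG5292 (-1.31), the homeobox gene HGTX (-1.31), and the genes of chromosomes X and 4 described further on.

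**Figure D1:**
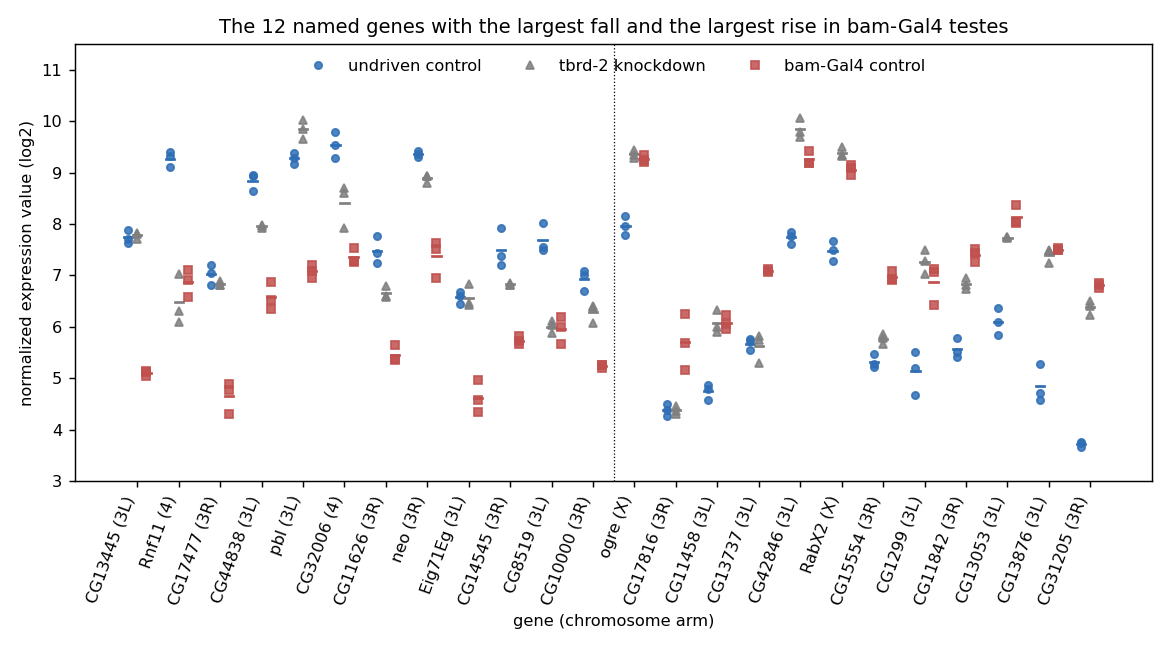
Normalized log2 expression values of the 12 named genes with the largest fall (left of the dotted line) and the 12 with the largest rise (right) in bam-Gal4 against undriven testes, with 1 symbol per array and a bar at the mean of the 3 arrays of a genotype. The controls are apart for every gene, while the knockdown arrays lie with undriven for CG13445, with bam-Gal4 for CG13876, between them for CG44838 and above both for pbl.

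The named genes were unevenly placed on the chromosomes. Of the 52, 24 lay on arm 3L, 17 on 3R, 8 on X and 3 on the small chromosome 4, and 0 lay on either arm of chromosome 2, although chromosome 2 held 5219 of the placed probe sets and 4650 of the 11940 placed genes. As a share of the arm's probe sets, calls were 0.893% on 3L, 0.496% on 3R, 0.362% on X, 3.66% of only 82 probe sets on 4, and 0 of 2478 on 2L and 0 of 2741 on 2R. The Y held 10 probe sets of 8 genes. Of so few, 0 had an adjusted p under 0.05, which is near the share of 2.08% over all probe sets. These are counts with no test. The other 20 called probe sets carry no single placed gene, so their chromosomes are not known here.

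With the adjusted p alone, the order of the arms was similar but chromosome 2 was not empty. The share was 4.09% on 3L (110 probe sets), 3.59% on 3R (123), 4.88% on 4 (4), 2.26% on X (50), 0.766% on 2R (21) and 0.565% on 2L (14). Chromosome 3 as a whole reached 3.81% and chromosome 2 0.671%. The share with an unadjusted p under 0.05 was 16.0% on chromosome 3 and 8.62% on chromosome 2, beside 11.2% of all probe sets. The median residual SD of a probe set was 0.110 to 0.114 on X, both arms of 2 and both arms of 3, and 0.134 on chromosome 4, so the spread between arrays was similar on the large chromosomes. In the knockdown comparisons chromosome 2 did carry calls, 1.13% of its probe sets against bam-Gal4 and 1.17% against undriven.

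**Figure D2:**
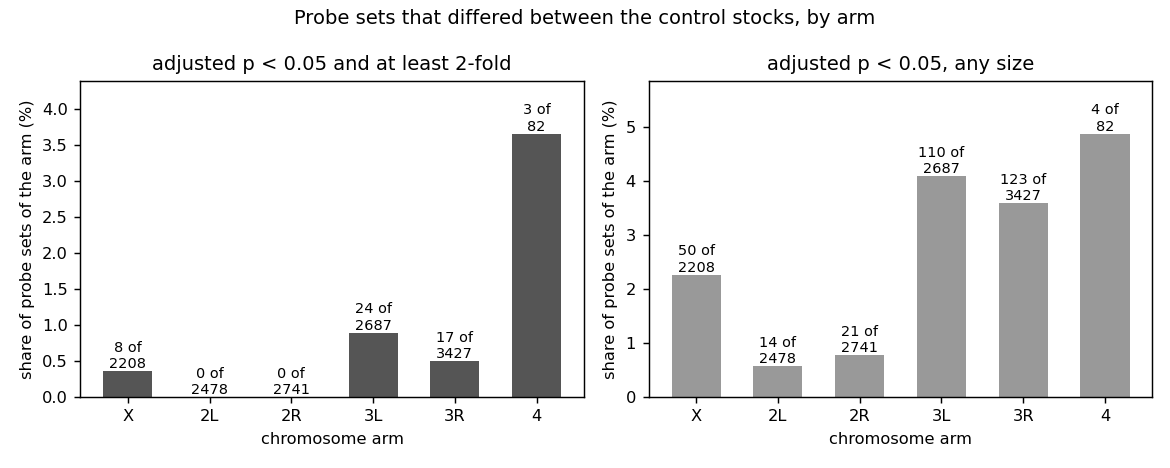
Share of the probe sets of each chromosome arm, in percent, that passed both limits (left) or the adjusted p alone (right) between bam-Gal4 and undriven testes, with the counts above each bar. Arms 2L and 2R hold 0 calls on the left and the smallest shares on the right, at 0.565% and 0.766%, and chromosome 4 rests on 82 probe sets.

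The 35 probe sets of chromosome 2 with an adjusted p under 0.05 all stayed under the fold limit. CG4409 and CG16926 came nearest, each higher in bam-Gal4 testes by 0.92. CG4409 gave 5.78, 5.84 and 5.54 against 4.71, 5.03 and 4.66 (adjusted p = 0.00354), and CG16926 gave 8.70, 8.86 and 8.99 against 8.39, 7.75 and 7.64 (adjusted p = 0.0499). In the other direction CG2772 was lower by 0.91 (7.12, 6.99 and 7.03 against 8.04, 7.91 and 7.91, adjusted p = 0.000144). The count of 0 calls on chromosome 2 became 1 when bam-Gal4 replicate 3, undriven replicate 1 or undriven replicate 2 was left out, by CG4409 or CG16926. Just outside the fold limit on other chromosomes stood CG15449 on X (-0.99), BHD on 3L (0.98), and CG6040 on 3R (-0.98).

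Chromosome 2 also carried 23 probe sets past the fold limit that did not pass the adjusted p. In 18 of them undriven replicate 3 was the highest of the 6 control arrays, and these 18 were all lower in bam-Gal4 testes. They included the maltase genes Mal-A1 (-1.53) and Mal-A3 (-1.35) and the digestive protease genes Jon25Biii (-1.72) and lambdaTry (-1.24). Jon25Biii gave 6.51, 6.36 and 5.86 in bam-Gal4 testes and 6.73, 6.50 and 10.66 in undriven testes, so that 1 array carried the difference. Over 36 gut enzyme genes the mean log2 value was 5.02 to 5.08 on the bam-Gal4 arrays, 5.23, 5.05 and 6.77 on the undriven arrays and 4.83, 4.87 and 6.21 in the knockdown, and 0 of the 36 were called. The 5 higher ones were CG17242, CG43101, jhamt, Obp51a and EbpII. CG17242 gave 6.0, 11.16 and 10.29 in bam-Gal4 testes and 6.10, 6.59 and 6.08 in undriven testes (difference 2.89, SE 1.44, adjusted p = 0.513). The mean of 22 accessory gland or ejaculatory duct genes spread from 8.07 to 11.68 within bam-Gal4, from 9.08 to 10.14 within undriven and from 9.85 to 11.64 within the knockdown, with 0 of 22 called. In lists so small, the counts of 0 for gut and accessory gland are near the 0.38% called over all probe sets. They therefore tell nothing about these tissues. Over the whole array, undriven replicate 3 was the highest control array in 43 of the 45 probe sets that were lower past the fold limit without a call. The part of these tissues in the called genes was not tested beyond fits with these means as covariates, which called 78 (accessory gland) and 77 (gut) probe sets, 71 and 68 of them among the 72.

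**Figure D3:**
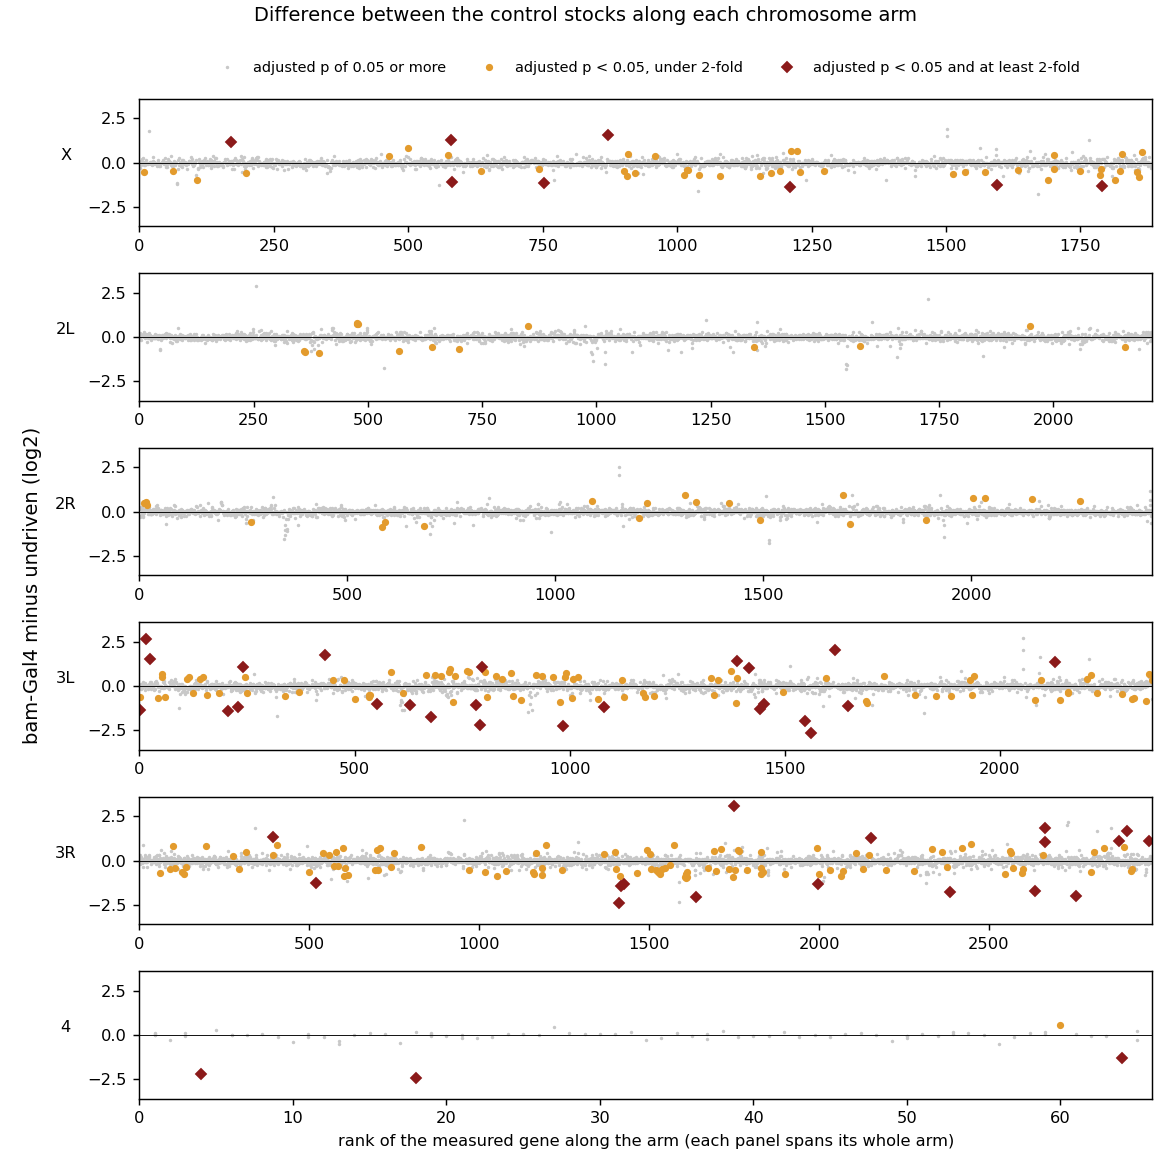
Difference between bam-Gal4 and undriven testes on the log2 scale for every placed probe set, against the rank of its gene among the measured genes of the arm, with 1 panel per arm. The probe sets past both limits (diamonds) are spread along X, 3L, 3R and 4, and the panels of 2L and 2R hold 14 and 21 probe sets past the adjusted p alone (circles) and 0 diamonds.

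Along chromosome 3 the differences were spread over most of the length of both arms. Of windows of 50 measured genes, 43 of 48 on 3L and 48 of 60 on 3R held at least 1 gene with an adjusted p under 0.05, against 25 of 38 on X, 10 of 45 on 2L and 16 of 49 on 2R. No window held more than 3 called genes or, on 3R, more than 8 with an adjusted p under 0.05. Of the 52 called genes, 4 (7.69%) had another called gene next to them or next but 1 among measured genes. Of the 315 genes with an adjusted p under 0.05, 51 (16.2%) had such a neighbour, and of their 28 pairs 20 differed in the same direction and 8 in opposite directions. By arm the share was 20% on X, 35.7% on 2L, 9.52% on 2R, 10.3% on 3L, 19.3% on 3R and 0 on 4. The share that the density of such genes alone would give was not computed, so these counts are no measure of clustering.

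One called pair was CG11841 and CG11842, adjacent genes on 3R that both belong to the serine protease family. CG11842 gave 7.27, 7.52 and 7.43 in bam-Gal4 testes, 5.52, 5.78 and 5.41 in undriven testes and 6.73, 6.82 and 6.95 in the knockdown. CG11841 gave 6.75, 6.74 and 6.83, then 5.74, 5.75 and 5.75, then 6.35, 6.35 and 6.31. Both were higher in bam-Gal4 testes (1.84 and 1.03, adjusted p = 5.29e-05 and 2.72e-05), and for both all 3 knockdown arrays lay between the controls. CG11841 stands at the fold limit and fell just short of it without bam-Gal4 replicate 3. The next gene on the other side, CG11843, differed by 0.18 (adjusted p = 0.521).

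The other called pair was ogre and Inx7 on X, which code for innexins, the proteins of insect gap junctions. They moved in opposite directions. ogre gave 9.35, 9.25 and 9.21 in bam-Gal4 testes against 7.78, 8.15 and 7.97 in undriven testes (difference 1.30, SE 0.10, adjusted p = 0.000144). Inx7, next but 1 among the measured genes, gave 5.80, 5.43 and 5.49 against 6.58, 6.32 and 7.04 (difference -1.07, SE 0.20, adjusted p = 0.0243). Inx7 was less firm: its adjusted p was 0.0561 to 0.106 when bam-Gal4 replicate 2 or 3 or undriven replicate 1 or 3 was left out. The innexin gene Inx2, next after Inx7, differed by 0.03, and the other innexin genes checked, Inx3, Inx5, Inx6 and zpg (the innexin of germ cells), differed by -0.15, 0.04, -0.09 and 0.07, with adjusted p-values from 0.551 to 0.948.

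Looser groups lay around CG17477 on 3R and pbl on 3L. The stretches given here were chosen after the values were seen and differ in width, so their counts are no measure of density. Within 14 measured genes to each side of CG17477 (30 probe sets), 3 were called and 6 had an adjusted p under 0.05. Besides CG17477 they were CG31266 (4.62, 4.71 and 4.58 against 6.10, 6.27 and 5.85) and CG5292 (6.64, 6.69 and 6.42 against 8.04, 7.86 and 7.79), with CG31265 (-0.85), Patr-1 (-0.50) and CG18213 (0.47) under the fold limit. Of the measured genes between CG17477 and CG31266, CG31265 was lower as well, while CG31269, CG17475 and CG4053 differed by -0.09, -0.01 and 0.01. CG31269, CG17475 and CG4053 were at low signal in both controls, so a fall in them could be missed. For the 6 genes with an adjusted p under 0.05 the knockdown differed from bam-Gal4 each time, and only for CG31266 did it differ from undriven as well. Within 10 measured genes to each side of pbl (24 probe sets), the 3 with an adjusted p under 0.05 were all called: pbl itself, Snmp2 (-1.06) and exex, a homeobox gene (1.07). Snmp2 and exex were at low signal (means of 4.13 against 5.19 and 4.65 against 3.58). The other probe set of Snmp2 differed by -0.24 (limma adjusted p = 0.34). Snmp2 lost the call without bam-Gal4 replicate 2, bam-Gal4 replicate 3 or undriven replicate 1 (adjusted p of 0.06, 0.0843 and 0.0214, the last with a difference of -0.82), and exex without bam-Gal4 replicate 1 (0.94).

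**Figure D4:**
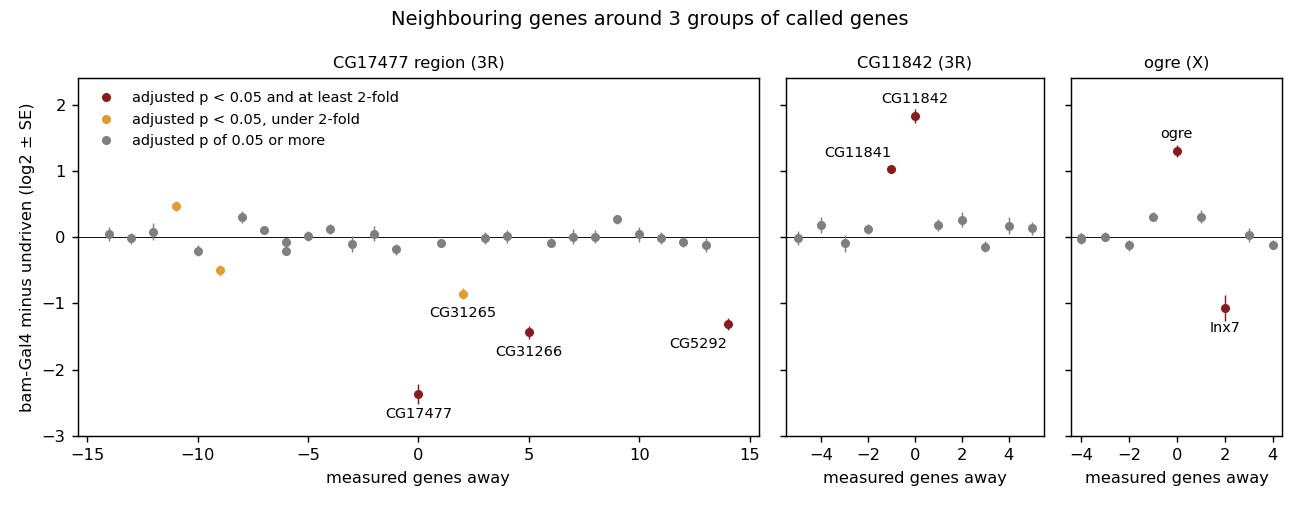
Difference between bam-Gal4 and undriven testes (log2, with the standard error from limma) for measured genes in their order around CG17477 and CG11842 on 3R and ogre on X, coloured by whether both limits, the adjusted p alone or neither were passed. Most genes between the labelled ones lie near 0, the pair CG11841 and CG11842 rises together, and ogre and Inx7 lie on opposite sides of 0.

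The longest run of neighbours by the adjusted p alone also lay on 3R: mRpL55, ATPsynD, CG6040, Cyp12a5 and Ppcs, 5 of 6 consecutive measured genes, all lower in bam-Gal4 testes. They take in a mitochondrial ribosomal protein (mRpL55), a subunit of the ATP synthase (ATPsynD) and a cytochrome P450 (Cyp12a5). The differences were -0.92, -0.77, -0.98, -0.82 and -0.90. ATPsynD gave 10.12, 10.12 and 10.14 against 10.94, 10.87 and 10.89, with 10.44, 10.41 and 10.39 in the knockdown. mRpL55 gave 7.51, 7.41 and 7.42 against 8.32, 8.38 and 8.41, with 7.54, 7.46 and 7.33 in the knockdown. So the knockdown overlapped bam-Gal4 for mRpL55 and lay between the controls for ATPsynD. For CG6040 the knockdown mean of 6.74 was below both bam-Gal4 (7.15) and undriven (8.12). For Ppcs the knockdown mean of 5.7 was also below both (5.88 and 6.78). On 3L the run was CG8745 (-0.95), dysc (0.43) and CG13737 (1.42), in mixed directions. On 2L it was CG3652, l(2)k05819 and Dim1, all higher, by 0.81, 0.72 and 0.75, in the 1 stretch of chromosome 2 with 3 such neighbours.

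For each called gene the knockdown arrays were then set against each control. In the same fit 18.6% of all probe sets had an adjusted p under 0.05 between knockdown and bam-Gal4, and 19.1% between knockdown and undriven. These contrasts share their arrays with the comparison of the controls, so the counts that follow describe the called probe sets and carry no test. Of the 72, the knockdown differed from bam-Gal4 only in 22 and from undriven only in 22. It differed from both in 27 and from neither in 1, the sensory neuron membrane protein gene Snmp2. On a scale with 0 at the undriven mean and 1 at the bam-Gal4 mean, the knockdown mean had a median position of 0.42 (quartiles 0.16 and 0.84). It lay within 0.25 of undriven in 18, within 0.25 of bam-Gal4 in 20, between these bands in 28, beyond undriven in 3 and beyond bam-Gal4 in 3. In 30 of the 72 all 3 knockdown arrays lay between all arrays of the controls.

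The genes of chromosome 3 were divided. Of the 41, the knockdown differed from bam-Gal4 only in 12, from undriven only in 10, from both in 18 and from neither in 1, and the median position was 0.40. By this count 19 of the 41 lay between the bands and 21 had all knockdown arrays between the controls. CG44838 is an example, with 6.88, 6.34 and 6.53 in bam-Gal4 testes, 8.64, 8.96 and 8.93 in undriven testes and 7.93, 7.99 and 7.96 in the knockdown (position 0.39). CG11626 (0.40), CG14545 (0.38), CG10000 (0.38), HGTX (0.42), CG8369 (0.50) and the cuticle protein gene Cpr65Av (0.51) stood likewise. The position depends on the scale: on linear values, a scale added after the data were seen, the median over the 41 was 0.53. By the labels the knockdown carries the driver on 1 homologue of chromosome 3, as bam-Gal4 does, and the hairpin on the other, as undriven does. It lacks the Sb marker of both controls. The labels do not show whether the rest of each homologue is the same in the knockdown and the control.

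At the ends of the scale on chromosome 3 stood genes on both sides. Next to undriven were CG13445 (-0.01), Eig71Eg (0.00), CG17816 (-0.00), CG13737 (-0.04), CG15546 (-0.04) and CG17477 (0.08). Next to bam-Gal4 were CG11458 (0.99), CG13609 (0.97), CG8519 (0.97), CG13876 (0.96) and the ionotropic receptor gene Ir100a (0.90). CG8519 gave 6.19, 6.0 and 5.66 in bam-Gal4 testes, 8.02, 7.56 and 7.49 in undriven testes and 5.88, 6.03 and 6.11 in the knockdown. CG17816 gave 6.26, 5.17 and 5.69, then 4.5, 4.27 and 4.38, then 4.47, 4.31 and 4.36, so that it was high in bam-Gal4 testes alone, but its adjusted p was 0.0508 to 0.0719 without bam-Gal4 replicate 3, undriven replicate 2 or undriven replicate 3. Farthest beyond either control was CG17177, with 9.31, 9.22 and 9.26 in bam-Gal4 testes, 10.17, 10.39 and 10.25 in undriven testes and 8.16, 8.09 and 8.05 in the knockdown (position 2.16). CG17177 stood at the fold limit between the controls (-1.01) and was under it without bam-Gal4 replicate 2 (-0.98) or undriven replicate 2 (-0.95).

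Of the 8 called genes of X, the knockdown differed from undriven only in 5, from bam-Gal4 only in 1 and from both in 2, with a median position of 0.82. By the labels the knockdown and bam-Gal4 males carry the driver on X, and the undriven label gives no X. RabX2 gave 9.14, 8.95 and 9.08 in bam-Gal4 testes, 7.28, 7.49 and 7.67 in undriven testes and 9.50, 9.34 and 9.32 in the knockdown. In ogre the knockdown arrays (9.29, 9.44 and 9.34) overlapped those of bam-Gal4, and in Inx7 too (5.83, 5.49 and 6.05). The 5′-nucleotidase family gene Nt5b gave 7.52, 7.28 and 7.37, then 8.92, 8.60 and 8.47, then 7.09, 7.24 and 7.25. CG10970, the fifth of this kind, was lower by 1.13 with a position of 0.84.

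The other 3 genes of X stood elsewhere. GstT3, a glutathione S-transferase gene, gave 6.16, 6.28 and 6.28 in bam-Gal4 testes, 7.68, 7.43 and 7.58 in undriven testes and 6.78, 6.48 and 6.75 in the knockdown, between the controls but nearer to bam-Gal4 (position 0.68). CG3857 gave 8.52, 8.18 and 8.56, then 6.82, 7.42 and 7.55, then 6.78, 7.21 and 7.0. It was the 1 gene of X with the knockdown next to undriven, and it lost the call without bam-Gal4 replicate 1 (adjusted p = 0.0581), bam-Gal4 replicate 3 (0.0752) or undriven replicate 1 (log2-fold change 0.93). mud (mushroom body defect), the fly relative of NuMA that orients the mitotic spindle, was lower in bam-Gal4 testes (7.68, 7.42 and 7.23) than in undriven testes (8.83, 8.89 and 8.79), and the knockdown (9.74, 10.32 and 10.13) lay above both, by 2.62 and 1.23. Over the 50 probe sets of X with an adjusted p under 0.05 the knockdown differed from undriven only in 23 and from bam-Gal4 only in 9, from both in 13 and from neither in 5. On chromosome 3 these counts were 68, 86, 60 and 19 of 233, and on chromosome 2 they were 15, 11, 8 and 1 of 35.

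**Figure D5:**
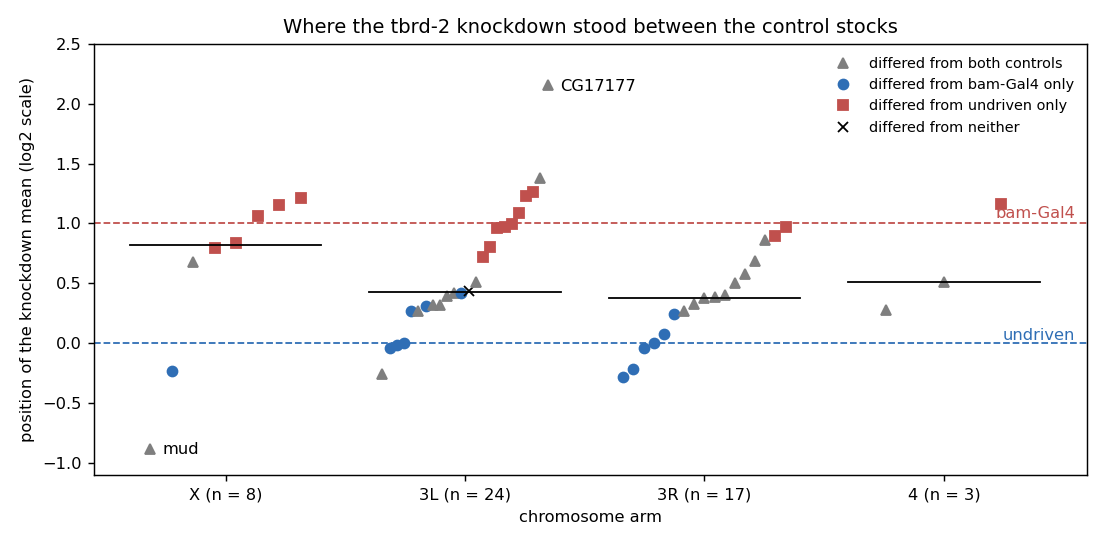
Position of the knockdown mean on the log2 scale, with 0 at the undriven mean and 1 at the bam-Gal4 mean (dashed lines), for the 52 called named genes by chromosome arm, each point a gene and each bar the median. Medians are 0.82 on X, 0.43 on 3L, 0.38 on 3R and 0.51 on the 3 genes of chromosome 4, and mud and CG17177 lie farthest outside the controls.

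The 3 called genes of chromosome 4 were all lower in bam-Gal4 testes. The RING finger gene Rnf11 gave 7.10, 6.59 and 6.92 against 9.10, 9.32 and 9.40, a 5.29-fold difference (-2.40, SE 0.22, adjusted p = 0.000523), and 6.31, 7.03 and 6.09 in the knockdown, overlapping bam-Gal4. CG32006 gave 7.53, 7.26 and 7.28 against 9.79, 9.28 and 9.53, with the knockdown between them at 8.70, 8.61 and 7.93. The protein kinase gene Dyrk3 was at low signal throughout, with 3.05, 3.28 and 3.22, then 4.5, 4.38 and 4.53, then 4.07, 4.03 and 4.23. So of 3 genes on the same small chromosome the knockdown was next to bam-Gal4 in 1 and differed from both controls in 2.

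Both directions held genes with the knockdown next to either control. Among the 39 probe sets lower in bam-Gal4 testes the knockdown differed from bam-Gal4 only in 11, from undriven only in 8, from both in 19 and from neither in 1. Among the 33 higher ones it differed from bam-Gal4 only in 11, from undriven only in 14 and from both in 8. The median positions were 0.33 and 0.69 on the log2 scale, and 0.45 and 0.56 on linear values, so most of this gap depends on the scale.

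Several called genes have further probe sets, and these often gave another picture. Of 9 further probe sets of 8 called genes, 2 had an adjusted p under 0.05, those of CG17816 (0.34, adjusted p = 0.0226) and mthl8 (-0.61, adjusted p = 0.0189), both in the direction of the call, and 5 of 9 had its sign. The other probe sets of mud differed by 0.19 and 0.02 between the controls, at 9.78 against 9.59 and 9.37 against 9.34. The other probe set of Rnf11 gave 6.47 against 6.28, that of CG44838 7.30 against 6.83, with the sign opposite to the call, and that of CG3857 6.55 against 6.53. On such arrays a value depends on how well the RNA matches the probes, and a difference in RNA level, in splice form or in the sequence under the probes cannot be told apart within 1 probe set.

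Of the called probe sets without a placed gene, 4 carry several symbols, 14 are not named here and 2 are control probe sets of the array. The largest differences of all were among the unnamed ones. One was 10.9-fold lower in bam-Gal4 testes (3.59, 3.96 and 3.33 against 7.2, 7.0 and 7.0). Its knockdown values of 6.68, 6.51 and 6.34 were nearer to undriven but below it (difference -0.56, limma adjusted p = 0.0323). Another was 10.8-fold higher (8.73, 8.75 and 9.09 against 5.48, 5.24 and 5.56), with the knockdown overlapping undriven at 5.17, 5.58 and 5.93. For both, the knockdown was far from bam-Gal4. The knockdown differed from bam-Gal4 only in 9 of these 20, from undriven only in 6 and from both in 5.

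The lists of genes by function that were counted here held few calls. The serine protease family, to which several called genes named above belong, was not counted, so no share is given for it. Among 34 glutathione S-transferase genes GstT3 was called, among 104 cuticle protein genes Cpr65Av (-1.06), and among 165 odorant, gustatory and ionotropic receptor genes Or94a was called lower and Ir100a higher. Or94a gave 5.2, 5.26 and 5.53 against 6.76, 6.62 and 6.56. Ir100a gave 6.28, 6.36 and 6.42 against 5.43, 5.43 and 4.96, and its difference was 0.92 without undriven replicate 3. Of 81 cytochrome P450 genes 0 were called and 4 had an adjusted p under 0.05, Cyp12a5 (-0.82), Cyp28d2 (-0.76), Cyp316a1 (0.87) and Cyp4d2 (-0.60). As shares of their probe sets, calls were 2.78% in the glutathione S-transferase genes, 0.943% in the cuticle protein genes and 1.08% in the receptor genes, each resting on 1 or 2 probe sets, beside 0.38% over the array. By the adjusted p alone the cytochrome P450 genes reached 4.82%, beside 2.08%. The median difference was -0.01 in the cytochrome P450 and cuticle protein genes, 0.01 in the glutathione S-transferase genes and -0.03 in the receptor genes, beside -0.01 over all probe sets.

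Groups that define the testis or act in its germ cells held 0 of 74 probe sets with an adjusted p under 0.05 between the controls, where 2.08% of all probe sets had one. A count of 0 in so few probe sets is near that share. The groups were 5 genes of the testis TAFs and 11 of the testis meiotic arrest complex tMAC, which turn on the spermatocyte program, 9 spermatocyte meiosis genes, 8 genes of spermatogonia and germline stem cells, 20 post-meiotic and sperm genes, 8 genes of cyst cells and hub and 6 of the muscle sheath. The median differences were -0.01, 0.05, 0.07, -0.02, -0.05, -0.03 and -0.00 in that order. At an unadjusted p under 0.05 there were 3 of 6 probe sets of the testis TAFs, 1 of 11 of tMAC and 1 of 11 of the meiosis genes, together 5 of 74 (6.76%), beside 11.2% of all probe sets. The Y-linked genes, which sons take from their fathers, included kl-3, a dynein heavy chain gene of the sperm tail (6.38 against 6.95, difference -0.56, adjusted p = 0.23), and Pp1-Y2, a protein phosphatase gene (9.53 against 9.82, -0.29, adjusted p = 0.125). Of the 10 Y-linked probe sets, 4 were lower at an unadjusted p under 0.05, beside the same 11.2% in either direction, and 0 passed after adjustment. The median difference over the 10 was 0.06, so they differed in both directions.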

How the data were processed

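Total RNA of dissected testes was hybridized to Affymetrix Drosophila Genome 2.0 arrays, 3 per genotype. Groups and replicates follow the sample labels. The values deposited by the authors are log2 expression measures from affy and RMA (background correction, quantile normalization across arrays and a summary of the probes of each probe set). The sources used here do not give the versions. The methods state a joint RMA run with published arrays of another study for one comparison, and do not say whether the values used here come from that run. Quantile normalization hides any difference in total RNA.

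All 9 arrays were fitted with 1 mean per genotype by limma 3.58.1 (lmFit and eBayes) in R 4.3.3, with 6 residual degrees of freedom (9.23 with the prior), and p-values were adjusted by Benjamini-Hochberg over all 18952 probe sets in each contrast, with no filter. The script was tested on simulated data. The number of arrays limits the precision. Symbols came from the platform's annotation, updated through the RefSeq gene table, which also gave arms and gene order. Named are the 15 most changed genes in either direction, all called genes of X and 4 and those with a called neighbour, called members of gene lists, and tbrd-2, bam and Sb. Genes just under the fold limit, chromosome 2 genes, members of runs of neighbours and a few other called genes were named after their values were seen. The genes compared and the lists were chosen with earlier results of these data known. No protein sequences were used here. Alternatives covered normalization, filters, variance models, thresholds, covariates, leaving out arrays, 1 probe set per gene, and, added after seeing the data, leaving out the control probe sets. Same-numbered control arrays did not deviate together. Tables and plots were made in Python 3.11.15, with matplotlib 3.10.9.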

Additional observations from a re-analysis of the deposited data

How the results depend on the processing

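No difference changed direction under any alternative, and 36 of the 52 named genes stayed called in every alternative in which they were tested, other than the limit of 1.5. With no fold limit 230 probe sets were lower, 164 higher, 35 of them on chromosome 2, and the knockdown differed from bam-Gal4 only in 134 and from undriven only in 135. With a limit of 1.5 on the log2 scale the counts were 16 lower and 12 higher, 7 and 8. With 1 probe set per gene 18 were higher and the knockdown differed from bam-Gal4 only in 10, and with a mean log2 value of at least 6 in 13. Array weights gave 1 call on chromosome 2. Leaving out 1 array at a time gave 34 to 42 lower, 30 to 35 higher, 0 to 1 on chromosome 2, 15 to 25 with the knockdown differing from bam-Gal4 only and 20 to 25 from undriven only. The 6 control arrays alone kept 69 of the 72 calls, and this fit gives no value for the knockdown. Without the 3 arrays richest in gut or accessory gland transcripts 60 were kept, the fewest at the same limits with all probe sets. The replicate numbers do not pair the arrays (residual correlations of -0.37, -0.27 and 0.04 between same-numbered controls). With the replicate number as a block 71 of 72 calls were kept, with 38 lower, 33 higher and 0 on chromosome 2, and it changed no count by over 1.5 times. CG4835 (-1.03) lost its call whichever control array was left out (adjusted p 0.0526 to 0.0903), Snmp2 without bam-Gal4 replicate 2 or 3 or undriven replicate 1, and CG8100 without bam-Gal4 replicate 1 or undriven replicate 2. CG13038, CG13806, CG15546, Cpr65Av and exex fell just under the fold limit without 1 bam-Gal4 array (sizes 0.93 to 1.00). Signals near the array median limit what small differences can be read.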
